A study of Mus musculus with 6 samples.

Results

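The genes described here encode lysosomal hydrolases, their activator proteins and proteins of the lysosomal membrane, other than cathepsins and subunits of the proton pump. They were chosen by name, as a list of 32 gene symbols, with earlier results of these data known. All 32 were found among the 23282 entries of the count tables. Messenger RNA was counted from reads of transcript 3' ends in RAW 264.7, a mouse macrophage cell line that can be driven to form osteoclasts, the multinucleated cells that resorb bone. There were 3 CPN samples and 3 control samples, all from day 5 of osteoclast differentiation, and the series title names chaperonin 60 kDa, one of a family of protein-folding chaperones. The sample records name neither the source nor the dose of CPN, nor what drove differentiation or was given to the controls, and RAW 264.7 is a single line. Whether the samples of a group came from separate cultures is not stated, and the p-values therefore reflect spread among the deposited samples that may be technical.

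Lysosomes are acidic compartments in which proteins, sugars, lipids and nucleic acids are taken apart by a large set of soluble enzymes. Most of these enzymes are made in the endoplasmic reticulum, marked with mannose 6-phosphate in the Golgi and carried to the lysosome by receptors that bind this mark, while membrane proteins of the lysosome travel by their own sorting signals. In osteoclasts, lysosome-related vesicles fuse with the membrane facing the bone, which forms the ruffled border and releases acid and hydrolases onto the bone surface. Many lysosomal genes are targets of the transcription factors TFEB, TFE3 and MITF, which bind promoter elements built around the letters CACGTG.

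Library totals lay between 7957228 and 9713938 counts, and a library held 29 counts of a member at the least (Sgsh, CPN 3) and 18351 at the most (Psap). The labelled cell type was checked against fixed marker lists. Levels are in CPM (counts per 1000000, scaled to library size by TMM). Ptprc, from the macrophage list, had between 153 and 182 CPM in CPN and between 169 and 171 CPM in control. Cd68, from the same list, had at least 503 CPM in every library. Among the 8 macrophage markers, 3 of the 7 tested were higher in CPN and none lower. Those that rose were Adgre1 (3.45-fold), Itgam (3.94-fold) and Fcgr1 (14.1-fold, with only 7 counts in control 1). Csf1r and Cd68 had negative log2 fold changes (-0.39 and -0.19) and did not pass. The list summed to between 2254 and 2881 CPM in CPN and between 1872 and 2386 CPM in control, with Mrc1 below 1 CPM in every library. All 7 tested osteoclast markers of 9 were lower in CPN, and that list summed to between 862 and 1365 CPM in CPN and between 3848 and 3985 CPM in control, with Calcr and Itgb3 too low to test. The 4 granulocyte markers found summed to at most 34.6 CPM in CPN, in CPN 2, and to at most 0.117 CPM in control, nearly all of it S100a8, and Elane was at 0 in every library. The 5 stromal markers summed to between 12.2 and 18.7 CPM in CPN and to at most 4.67 CPM in control, and the 5 lymphocyte markers to 0 in CPN and at most 0.785 CPM in control. Dcn was the only stromal marker tested, at 11.3, 7.73 and 12.2 CPM in CPN and 0 in every control library. It passed the filter on low counts through CPN, while Col1a1 was highest in control 2, at 4.43 CPM. The osteoclast, granulocyte and stromal sums did not overlap between CPN and control, the macrophage sums did, and the lymphocyte genes were too low to test. The part of these lists in the results below was not tested. In such bulk samples, fewer cells of a type and less RNA per cell cannot be told apart.

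The element CACGTG was looked for in the promoters of these genes, because it is the feature by which the TFEB family recognises lysosomal genes. RefSeq promoter windows on build GRCm38.p6, from 250 bases before to 50 after a gene's start, were found for 29 of the 32 genes. A match stood in 9 of these 29 genes (31%), against 12.3% of the 8482 genes tested here that have a window and 8.09% of all 27025 genes with one. The longer string GTCACGTG on either strand, which contains it, stood in 8 of the 29 (27.6%), against 5.09% of tested genes and 2.55% of all. The full CLEAR consensus, a palindrome around the same core, was found in 0 of the 29 and in 0.37% of all genes. A match describes letters, not a bound site, and its absence says only that these letters are not in the window.

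The matches are shown so that their shared core and their flanks can be compared. Each is the match nearest the gene's start within 30 bases of the gene's own strand, with CACGTG in capitals. They lie at chr11:119267811-119267840 (+) for Gaa, chrX:134601182-134601211 (-) for Gla, chr9:114401018-114401047 (+) for Glb1, chr11:101070009-101070038 (+) for Naglu, chr15:89477423-89477452 (-) for Arsa, chr11:119355522-119355551 (-) for Sgsh, chr12:102439124-102439153 (-) for Lgmn, chr8:13159134-13159163 (+) for Lamp1 and chr8:3500462-3500491 (+) for Mcoln1. The first capital lies between 15 bases (Lamp1) and 194 bases (Gla) before the RefSeq start site around which its window is drawn. Lgmn has 2 windows, and its match stands in the second, whose start site lies inside the gene as GENCODE places it, while the first holds none. By the same placement, the capitals of Naglu and Mcoln1 also lie inside the gene, and those of Sgsh lie across its edge.
Gaa: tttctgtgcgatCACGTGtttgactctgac
Gla: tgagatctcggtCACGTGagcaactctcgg
Glb1: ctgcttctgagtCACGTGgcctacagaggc
Naglu: caaccttcaggtCACGTGgcccgaggtcgg
Arsa: tcaactcagtgtCACGTGttgtctgctcct
Sgsh: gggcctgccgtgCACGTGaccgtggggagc
Lgmn: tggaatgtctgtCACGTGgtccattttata
Lamp1: acgtgaccacatCACGTGcggaacggagcc
Mcoln1: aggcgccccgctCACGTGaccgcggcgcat

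Lamp1, whose product coats the inner face of the lysosomal membrane, held 4 matches, more than any other of these genes. Its 250 bases before the start (chr8:13158911-13159160, + strand) are set beside those of Gm2a (chr11:55097735-55097984, + strand), the gene that changed most between CPN and control and that held 0 matches.
Lamp1: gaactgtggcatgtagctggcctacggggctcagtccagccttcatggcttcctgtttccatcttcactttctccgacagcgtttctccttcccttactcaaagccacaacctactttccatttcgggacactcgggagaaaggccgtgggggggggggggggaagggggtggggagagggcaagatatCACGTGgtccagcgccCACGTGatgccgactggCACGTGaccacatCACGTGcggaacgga
Gm2a: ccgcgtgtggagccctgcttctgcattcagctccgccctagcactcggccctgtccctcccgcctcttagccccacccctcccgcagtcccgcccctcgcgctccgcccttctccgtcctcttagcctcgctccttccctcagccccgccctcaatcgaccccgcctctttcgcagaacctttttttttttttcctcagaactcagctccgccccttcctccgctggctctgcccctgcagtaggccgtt

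The comparison of CPN with control asked which of these genes differed at day 5. In CPN cells, 4 of the 32 genes fell, namely Gm2a, Arsb, Laptm5 and Lipa, and 3 rose, namely Npc1, Laptm4a and Neu1. Of the 7 that passed, Gm2a, Arsb and Npc1 changed at least 2-fold. Lamp1, the gene most used as a mark of lysosomes, averaged 1231 ± 67.2 CPM under CPN, against 1182 ± 297 CPM in controls (SD, n = 3 each). The 7 genes are 21.9% of the 32, where 14.0% of all 11092 genes tested passed edgeR's quasi-likelihood test at a Benjamini-Hochberg adjusted p of 0.05. By direction, 9.38% of the list rose and 12.5% fell, where 7.62% and 6.39% of all tested genes did. All 32 passed the filter on low counts, and their median log2 fold change was -0.24, against -0.0079 over all genes. With library totals alone in place of TMM scaling, which shifted the median of all genes to -0.13, 2 of the 32 rose and 9 fell. That is 34.4% of the list, beside 14.5% of all genes, of which 690 rose and 914 fell. Without both control 3 and CPN 1, the libraries with the fewest zeros among low genes, only Gm2a passed, which is 3.12% of the list beside 3.97% of all genes.

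**Figure D1:**
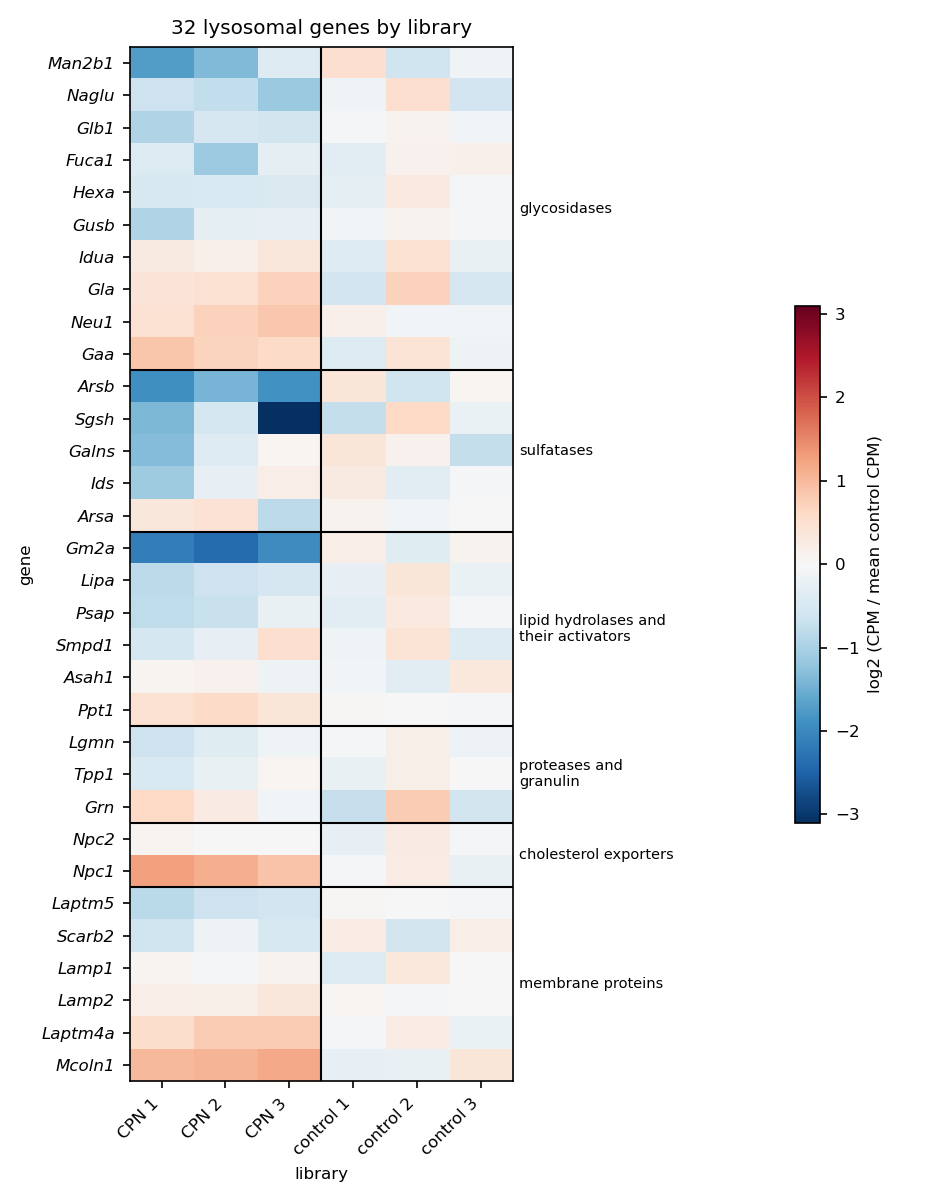
Level of each of the 32 genes (rows, grouped by role) in each library (columns, CPN left of control), as the log2 ratio of its CPM to the mean control CPM. Rows with 3 blue cells under CPN include Gm2a and Arsb, rows with 3 red cells include Npc1 and Mcoln1, and Sgsh in CPN 3 is the darkest cell.

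The groups did not overlap for 15 of the 32 genes (46.9%, against 32.6% of all genes tested), with CPN above control for 7 (16.9% of all genes) and below it for 8 (15.7% of all genes). Of these 15 genes, 8 did not pass the test. Exons of 8 of the 32 genes overlap those of another measured gene, with which reads may be shared (Hexa, Glb1, Idua, Arsa, Sgsh, Ppt1, Grn and Lamp1), and none of these 8 passed. Control 2 held the highest of the 6 values for 14 genes and CPN 1 the lowest for 14. The coefficient of variation between libraries of a group had a median of 14.8% in CPN and 21.6% in control, and reached 72% for Sgsh in CPN and 61.9% for Grn in control.

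Glycosidases cut sugars from glycoproteins, glycolipids and glycogen. Of the 10 in the list, Neu1 passed. Neu1 (chromosome 17, 34931253 to 34935953, GRCm38) encodes the sialidase that removes terminal sialic acids. It had 79.0, 92.1 and 101 CPM in CPN, against 62.8, 53.4 and 53.2 CPM in control. Every CPN value lay above every control value, and the rise was 1.61-fold (log2 fold change 0.68 ± 0.201, SE, edgeR adjusted p = 0.0386). This call ended when any one of the 6 libraries was left out (edgeR adjusted p between 0.0504 and 0.151).

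Glb1, the beta-galactosidase whose activity marks senescent cells, came closest to the threshold among the other glycosidases. It had 41.3, 55.01 and 53.5 CPM in CPN, against 77.3, 84.8 and 75.1 CPM in control, with no overlap (edgeR adjusted p = 0.0507). Gaa, which breaks down glycogen and is lacking in Pompe disease, had 88.2, 78.7 and 73.4 CPM in CPN, against 36.7, 66.1 and 44.2 CPM in control. It too had no overlap and did not pass (edgeR adjusted p = 0.0731). The alpha-mannosidase gene Man2b1 had 20.0, 25.8 and 50.5 CPM in CPN, against 94.5, 43.1 and 61.6 CPM in control (edgeR adjusted p = 0.0732), and its groups overlapped through CPN 3 and control 2. It passed in 6 of 15 alternatives, and with 1 library left out its log2 fold change lay between -1.54 (without CPN 3) and -0.71 (without control 1). Hexa, the alpha subunit of beta-hexosaminidase, had 239, 243 and 249.7 CPM in CPN, against 277, 420.2 and 324 CPM in control (no overlap, edgeR adjusted p = 0.103). The beta-glucuronidase gene Gusb, the fucosidase gene Fuca1 and the heparan sulfate enzyme gene Naglu had log2 fold changes between -0.83 and -0.47 and did not pass. Idua, another enzyme of heparan and dermatan sulfate breakdown, had a log2 fold change of 0.27 ± 0.310. Gla, the alpha-galactosidase lacking in Fabry disease, had 55.6, 58.8 and 69.0 CPM in CPN and 28.2, 69.4 and 29.6 CPM in control, which overlap through control 2. Its log2 fold change of 0.53 did not pass, and was 1.10 without control 2, when it did (edgeR adjusted p = 0.00571).

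Lysosomal sulfatases remove sulfate groups, mostly from glycosaminoglycans, and 1 of the 5 fell. Arsb (chromosome 13, 93771630 to 93943016), which encodes arylsulfatase B, acting on dermatan and chondroitin sulfate, had 21.2, 29.5 and 21.7 CPM in CPN, against 104, 51.9 and 83.3 CPM in control. The highest CPN value lay well under the lowest control value, and the gene fell 3.30-fold (log2 fold change -1.72 ± 0.281, edgeR adjusted p = 0.00126). Without both control 3 and CPN 1 the adjusted p was 0.061. Sgsh, the sulfamidase of heparan sulfate breakdown, had 11.6, 21.0 and 3.60 CPM in CPN, against 18.2, 46.6 and 26.5 CPM in control, which overlap through CPN 2 and control 1. It did not pass (log2 fold change -1.34 ± 0.531, edgeR adjusted p = 0.124), and it overlaps Card14 on the other strand, whose log2 fold change was -2.53. Galns, Ids and Arsa, which act on keratan sulfate, heparan and dermatan sulfate, and sulfatide, overlapped between groups and did not pass (edgeR adjusted p between 0.614 and 0.905). The 5 genes summed to 75.4, 110.2 and 82.4 CPM in CPN and to 194, 154 and 164 CPM in control, with Arsb the largest part of the difference.

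Among the 6 lipid hydrolases and their activators, 2 fell and none rose. Gm2a (chromosome 11, 55098115 to 55113029) encodes the GM2 activator, which lifts GM2 ganglioside out of membranes and presents it to beta-hexosaminidase. It had 41.2, 35.1 and 47.0 CPM in CPN, against 211, 140.3 and 198 CPM in control. The CPN values stood close together and far under the control values, a fall of 4.45-fold (log2 fold change -2.15 ± 0.219, edgeR adjusted p = 4.17e-05). Of the 7 genes it alone passed under all 15 alternatives tried, with log2 fold changes between -2.30 and -2.04. Lipa (chromosome 19, 34492318 to 34527474), the acid lipase that frees cholesterol from its esters, had 375, 420.3 and 454 CPM in CPN, against 550.3, 852 and 565 CPM in control. It fell 1.57-fold (edgeR adjusted p = 0.0357), and control 2 stood far above the other controls. Its call was lost on leaving out CPN 1, CPN 2, CPN 3, control 2 or control 3, each in turn, with an adjusted p of up to 0.124 by edgeR.

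Psap, the precursor of the saposins that activate several sphingolipid hydrolases, had 1034, 1103 and 1533 CPM in CPN, against 1422, 2198 and 1751 CPM in control. Its groups overlapped and it did not pass (edgeR adjusted p = 0.0814). Ppt1, a thioesterase that removes fatty acids from proteins, had 319.6, 349.7 and 301 CPM in CPN, against 238, 232 and 221 CPM in control. All CPN values of Ppt1 were above control, but it did not pass (1.40-fold, edgeR adjusted p = 0.0547). It overlaps Cap1 on the other strand, which had 12839 counts and a log2 fold change of -0.01. The ceramidase gene Asah1 and the sphingomyelinase gene Smpd1 had log2 fold changes of 0.03 and -0.03, with SE of 0.252 and 0.330.

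**Figure D2:**
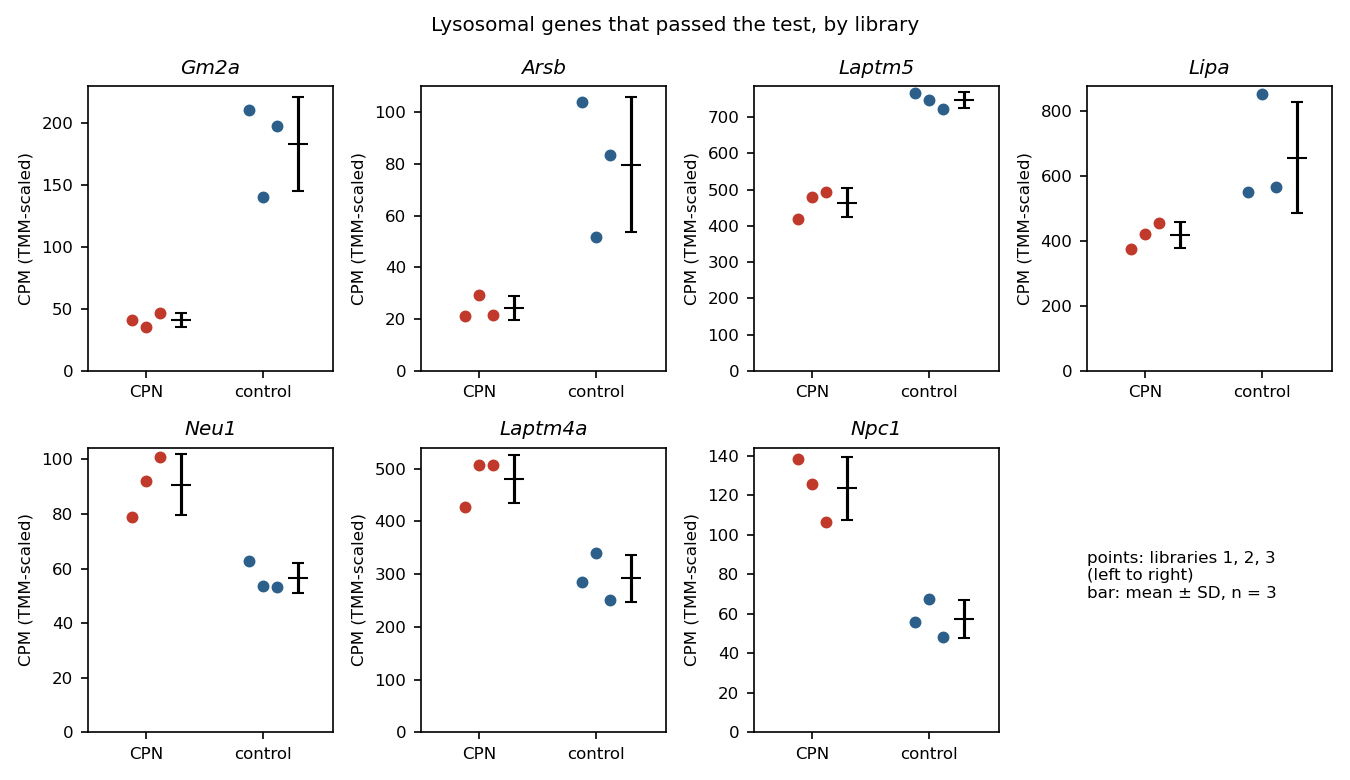
CPM of the 7 genes that passed, 1 panel each, with CPN libraries in red left of control libraries in blue and the mean ± SD (n = 3) as a black bar. In every panel the groups are separate, and for Gm2a, the gene with the largest fold change of the 7, the values lay at 35.1 to 47.0 CPM in CPN and 140.3 to 211 CPM in control.

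None of the 3 genes for proteases and granulin passed. Lgmn, the asparaginyl endopeptidase legumain, averaged 134 ± 23.9 CPM (SD, n = 3 each) under CPN, against 172 ± 22.4 CPM in controls. The tripeptidyl peptidase gene Tpp1 averaged 500.4 ± 91.2 CPM under CPN, against 574 ± 81.3 CPM in controls. Grn, the precursor of the lysosomal granulins, had 1447, 1126 and 893 CPM in CPN, against 574, 1610.1 and 635 CPM in control. Its log2 fold change was 0.30 ± 0.325 and turned on control 2, without which it was 0.95 (edgeR adjusted p = 0.0016).

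Npc1 and Npc2 hand cholesterol released in the lysosome to its membrane and out of it, Npc2 as the soluble carrier and Npc1 as the membrane protein. Npc1 had 138, 126 and 106 CPM in CPN, against 55.8, 67.7 and 48.5 CPM in control. Every CPN value exceeded every control value by a wide margin, a rise of 2.15-fold (log2 fold change 1.11 ± 0.207, edgeR adjusted p = 0.00319, and 0.108 without both control 3 and CPN 1). Npc2 had 1277, 1191 and 1200.2 CPM in CPN, against 1006, 1447 and 1176 CPM in control, which overlap (log2 fold change 0.02 ± 0.159).

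Of the 6 membrane proteins, Laptm4a rose and Laptm5 fell. They are related proteins that span the lysosomal membrane, and Laptm5 is found in blood cells, where it sends antigen receptors for breakdown. Laptm4a (chromosome 12, 8921664 to 8938742) had 428, 507 and 507 CPM in CPN, against 284, 341 and 251 CPM in control, a rise of 1.65-fold (edgeR adjusted p = 0.0126). Laptm5 (chromosome 4, 130913125 to 130936141) had 418, 479.8 and 494 CPM in CPN, against 767, 748 and 723 CPM in control, a fall of 1.61-fold (edgeR adjusted p = 0.00745). Neither pair of groups overlapped. The call of Laptm4a was lost on leaving out CPN 2, control 1 or control 3 (up to 0.0897 by edgeR). That of Laptm5 was lost without both control 3 and CPN 1 (0.114 by edgeR). Mcoln1, a channel that releases calcium from the lysosome, had 12.8, 13.4 and 14.5 CPM in CPN, against 5.40, 5.51 and 8.41 CPM in control. Its groups did not overlap, but the gene did not pass (log2 fold change 1.07 ± 0.448, edgeR adjusted p = 0.144). Lamp2, the partner of Lamp1 needed for autophagy, had 282, 278 and 311 CPM in CPN and 252, 239 and 239 CPM in control (edgeR adjusted p = 0.336). Lamp1 and Scarb2, the receptor that carries glucocerebrosidase to the lysosome, overlapped between groups, with log2 fold changes of 0.06 ± 0.180 and -0.41 ± 0.332. The signs for Lamp1, Npc2, Asah1 and Arsa turned negative with library totals alone.

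**Figure D3:**
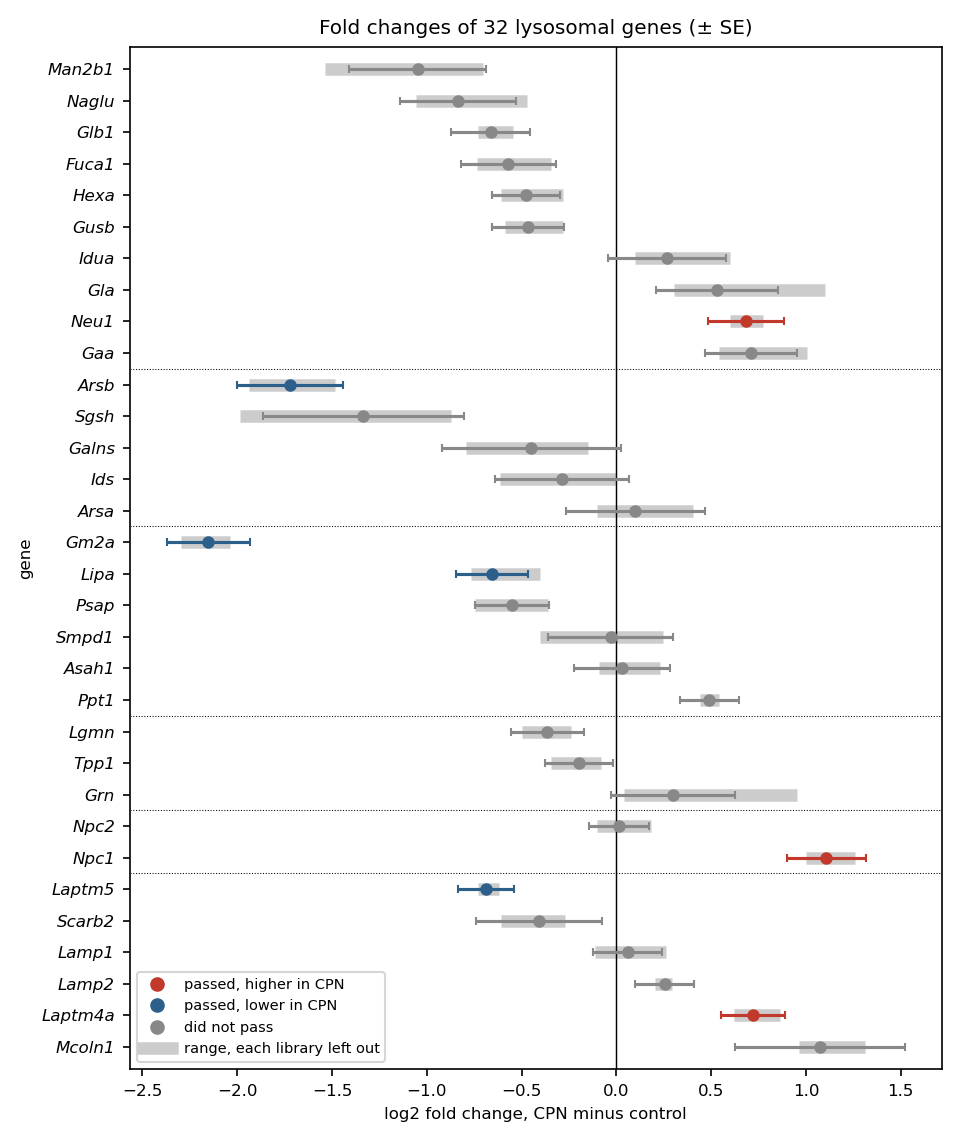
Log2 fold change of CPN over control for the 32 genes, grouped by role, with the SE as a bar and the range over fits that each leave out 1 library in grey. Genes that passed are red (higher in CPN) or blue (lower in CPN), and the widest fall is that of Gm2a at -2.15.

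Within a library, the ratio of counts of 2 genes does not depend on scaling. It was computed for 4 pairs of partner genes that were picked after their values were seen, and the counts are not per length, so a ratio is read only between groups. The ratio of Npc1 to Npc2 was 0.108, 0.106 and 0.0886 in CPN, against 0.0555, 0.0468 and 0.0412 in control, 2.12-fold higher in CPN. The ratio of Laptm4a to Laptm5 was 1.02, 1.06 and 1.03 in CPN, against 0.371, 0.455 and 0.348 in control, 2.67-fold higher in CPN. For both pairs the groups were separate, which the choice of pairs by their values already favours. The ratio of Gnptab to Gnptg, which encode subunits of the enzyme that builds the mannose 6-phosphate mark, was 1.35, 1.54 and 2.80 in CPN, against 14.4, 9.57 and 12.2 in control. This pair was also separate, but Gnptg overlaps Unkl. The ratio of Lamp1 to Lamp2 lay between 4.11 and 4.47 in CPN and between 3.49 and 6.17 in control. The ratios are a description, with no test.

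**Figure D4:**
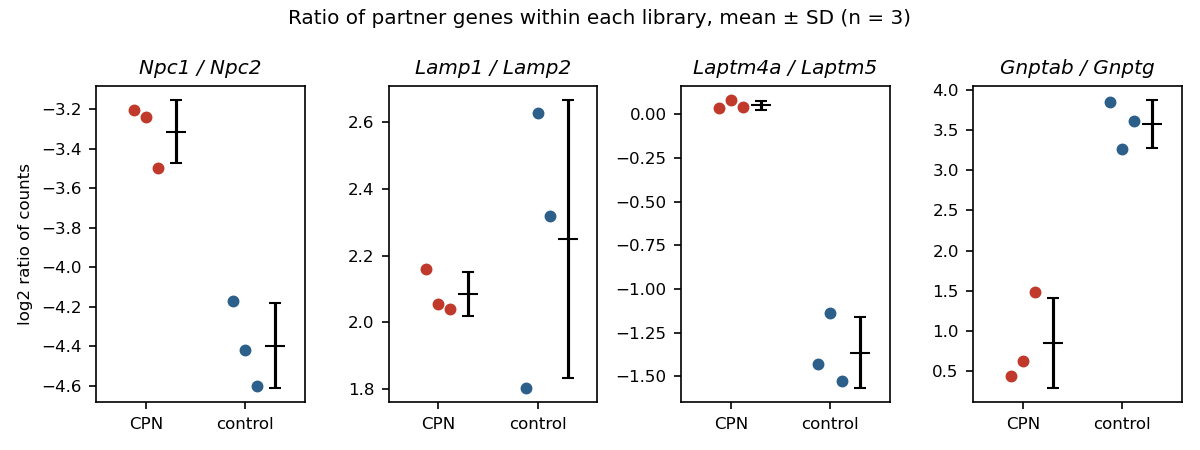
Log2 ratio of the counts of 2 partner genes within each library, CPN (red) left of control (blue), with mean ± SD (n = 3). The groups are apart in 3 of the 4 panels and overlap for Lamp1 / Lamp2.

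Other genes of the lysosome were read from 5 lists with 111 symbols, of which 107 genes were tested, and 13 rose and 12 fell. That is 23.4% of those tested, beside 14.0% of all genes, and 9 passed without both control 3 and CPN 1, where 3.97% of all genes did. The 13 that rose include Laptm4b and Syt7, which passed the filter on low counts through the CPN libraries, where they are high. The share without these genes was not computed, so 23.4% is only a description. Among 25 other hydrolases and helper proteins, 3 rose and 4 fell. Ifi30, a thiol reductase used in antigen processing, fell 2.53-fold, and the hyaluronidase gene Hyal1 fell 1.85-fold, to 38.2 ± 1.85 CPM in CPN against 70.9 ± 5.35 CPM in control, a call lost without control 3 (0.0666 by edgeR). Hyal1 overlaps Hyal3 on the same strand, which had 247 counts beside its 2841, and reads may be shared. The ribonuclease gene Rnaset2b rose to 457 ± 56.3 CPM in CPN against 143 ± 8.58 CPM in control (edgeR adjusted p = 3.72e-05), a gene whose near copy Rnaset2a can share its reads.

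Of 27 tested genes of other lysosomal membrane proteins and channels, 7 rose and 3 fell. The two-pore channel gene Tpcn1 fell 3.69-fold, to 34.2 ± 4.15 CPM in CPN against 126 ± 13.0 CPM in control (edgeR adjusted p = 6.47e-05). Slc11a1, which pumps iron and manganese out of the phagosome, rose 2.89-fold, to 149.6 ± 30.0 CPM in CPN against 51.7 ± 18.9 CPM in control. The peptide transporter gene Slc15a3 had 127, 90.1 and 44.7 CPM in CPN, against 1.47, 12.2 and 5.03 CPM in control, but it overlaps Tmem132a, which rose by 3.84 on the log2 scale, so shared reads cannot be assigned. Laptm4b, a relative of Laptm4a, had 219 counts in CPN and 3 in control, all in control 2. Adjusted for library size, CPN stood 82.3-fold above control, with an exact 95% interval of 27.8 to 402 for counting error alone. It passed the filter on low counts through the CPN libraries, where it is high, so its call is no support for the list, and the call was lost without CPN 3 (0.0552 by edgeR).

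Of the 18 genes for mannose 6-phosphate tagging and sorting, 1 rose and 1 fell. Gnptab, the catalytic part of the tagging enzyme, had 34.8, 43.9 and 63.9 CPM in CPN, against 128, 178 and 159.9 CPM in control, a fall of 3.27-fold (edgeR adjusted p = 0.00054). Vps26a, a part of the retromer that returns sorting receptors to the Golgi, rose 1.97-fold (edgeR adjusted p = 0.0131, and 0.062 without CPN 3). Gnptg and the sorting adaptor gene Gga3 did not pass, with log2 fold changes of 0.92 and -0.57. Gga3 overlaps Mrps7, whose log2 fold change was also -0.57.

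In the TFEB family and its nutrient control, 1 of 18 tested genes fell and none rose. Mitf, the family member tied to the osteoclast lineage, had 88.9, 99.4 and 106 CPM in CPN, against 240.3, 240.1 and 228 CPM in control, a fall of 2.41-fold (edgeR adjusted p = 0.000278). Tfeb was low, at 3.12, 1.44 and 0 CPM in CPN and 4.22, 12.9 and 7.36 CPM in control. No CPN value reached a control value, yet the gene did not pass (edgeR adjusted p = 0.159). Tfec, a relative found in macrophages and osteoclasts, had 10.1, 9.43 and 20.6 CPM in CPN, against 0.589, 0.24 and 5.26 CPM in control. Its groups did not overlap, but it did not pass (log2 fold change 2.72, edgeR adjusted p = 0.0622). It passed in 6 of 14 alternatives, among them DESeq2 (0.00956) and edgeR without control 3, where the log2 fold change was 4.94 (0.00419). Control 1 and control 2 held only 6 and 2 counts of Tfec, and control 3 held 45. Tfec thus passed the filter on low counts through the CPN libraries, where it is high, and these passes are no support for the list. Lamtor1, which anchors the nutrient-sensing complex on the lysosome, did not pass (log2 fold change -0.36).

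**Figure D5:**
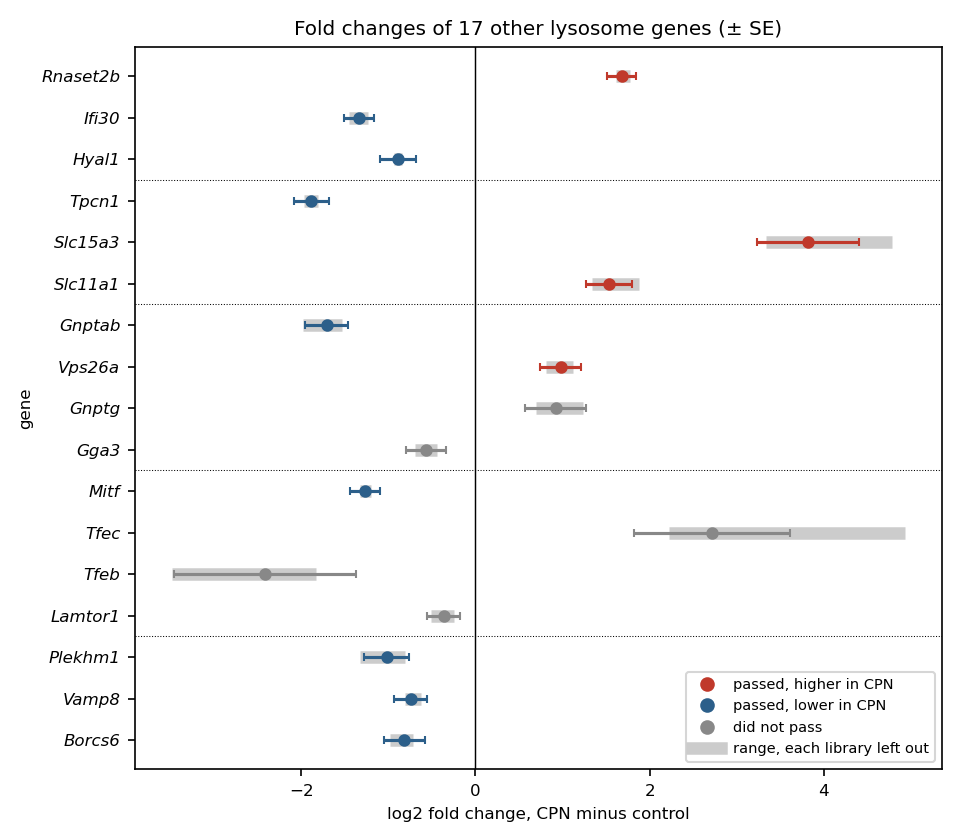
Log2 fold change of CPN over control (± SE) for 17 named genes of the other lysosome lists, with dotted lines between lists and the range over fits that each leave out 1 library in grey. Laptm4b and Syt7, with at most 3 counts in all control libraries together, are not drawn, and Slc15a3 lies farthest right at 3.82.

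Among 19 tested genes of late endosome and lysosome traffic, 2 rose and 3 fell. Plekhm1, which links lysosomes to their fusion machinery and is mutated in a form of osteopetrosis, fell 2.03-fold, to 53.3 ± 17.9 CPM in CPN against 108 ± 24.7 CPM in control (edgeR adjusted p = 0.0196). That call was lost without CPN 2, CPN 3 or control 3 (up to 0.109 by edgeR). The fusion protein gene Vamp8 fell 1.67-fold and Borcs6, a part of the complex that moves lysosomes outward, fell 1.76-fold. Vamp8 lost its call without CPN 1, CPN 2 or control 3, and Borcs6 without CPN 2, CPN 3 or any 1 control. Syt7, the calcium sensor of lysosome exocytosis, had 8.04, 14.7 and 12.5 CPM in CPN, and its 280 counts there stood against 1 count in control, in control 3. Adjusted for library size, CPN stood 316-fold above control, with an exact 95% interval of 56.2 to 12510 for counting error alone. Like Laptm4b, it passed the filter through the CPN libraries, and its call is no support for the list.

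The motif matches stood beside these calls as follows. Of the 7 genes of the main list that passed, 6 have a promoter window, and 0 of them held CACGTG. Of the 25 that did not pass, 23 have a window and 9 held it. Over all tested genes with a window, it stood in 12.1% of those that rose and 10.9% of those that fell.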

How the data were processed

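Total RNA from 6 RAW 264.7 samples was sequenced as QuantSeq libraries, in which reads come from the 3' ends of transcripts, so a count reflects the end of a transcript and not its length. The authors deposited whole-number counts per gene symbol, 1 table per sample, and the submitters' processing notes name Bowtie2, bedtools and mm10, without versions. No source used here states the gene annotation, whether strand was used, or what was done with duplicate reads. Groups were taken from the sample titles.

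The counts were tested with edgeR 4.0.16 in R 4.3.3 by the quasi-likelihood test, with TMM scaling, on the 11092 of 23282 entries that passed filterByExpr (minimum count 10, minimum total 15). P-values were adjusted by the Benjamini-Hochberg method over all of these, with a threshold of 0.05, and the SE is the log2 fold change divided by the square root of F. The fit's common biological CV came to 0.355. The genes named are all 32 of the list and, of each of the 5 other lists, the 4 with the smallest p, of which 1 gene is not reported here. The members and lists were chosen with earlier results of these data known. A count of 3 equals 0.294 to 0.393 CPM, depending on the library. The fit was tested on simulated data. DESeq2 1.42.0, limma 3.58.1 and other scalings, filters and sample sets were alternatives. Overlaps and positions are from GENCODE M21 (GRCm38). Promoter windows are RefSeq's, and Galns, Asah1 and Npc1 are named without one. Between groups, correlations of same-numbered samples' residuals lay between -0.0508 and 0.0276, and those of other-numbered samples between -0.067 and 0.0583. With 3 samples a group, these values cannot decide whether the replicate numbers pair the samples.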

Additional observations from a re-analysis of the deposited data

How the results depend on the processing

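Of the 32 genes, 26 kept the sign of their fold change in all 15 alternatives, and 11 that did not pass did so in at least 1 alternative. The number that passed (7, with 3 higher and 4 lower) became 11 with library totals alone (9 lower) and 13 with no filter on low counts (9 lower). These are 34.4% and 40.6% of the list, beside 14.5% and 13.1% of all genes tested in the same settings. The number became 12 with DESeq2 (5 higher, 7 lower) and 12 with limma-voom (5 higher, 7 lower). Each is 37.5% of the list, beside 17.6% of all genes with DESeq2 and 15.1% with limma-voom. Without both control 3 and CPN 1 it was 1 (0 higher, 1 lower), among 446 genes in all (273 higher, 173 lower) and 9 of the other lysosome genes (3 higher, 6 lower). With 1 library left out, the list had 4 to 10 genes passing (1 to 6 higher, 3 to 5 lower), all genes 884 to 1954 (525 to 1131 higher, 359 to 823 lower), and the other lysosome genes 14 to 30 (6 to 19 higher, 7 to 11 lower). The fewest for the list, 4, came without CPN 2 or control 3, and the most, 10, without control 2. Those 4 are 12.5% of the list, beside 7.96% of all genes without CPN 2 and 7.71% without control 3. The 10 are 31.2% of the list, beside 17% of all genes. With the replicate number as a block, 5 of the list passed (15.6%, 2 higher, 3 lower), 1326 genes in all (12%) and 23 of the other lysosome genes. Lipa (0.0545 by edgeR) and Neu1 (0.0803 by edgeR) were lost. The numbers are not tied to shared cultures in the labels, so this pairing was not used.

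Log2 fold changes turned sign for genes near 0. With library totals alone they were -0.02172 for Arsa, -0.0978 for Asah1, -0.09885 for Npc2 and -0.05512 for Lamp1, and with limma-voom -0.007967 for Arsa. Without both control 3 and CPN 1 they were -0.05215 for Arsa, 0.01328 for Smpd1, -0.1128 for Grn and -0.03648 for Npc2. With 1 library left out, they lay between -0.1034 and 0.4053 for Arsa, -0.09292 and 0.2302 for Asah1, -0.1153 and 0.2633 for Lamp1, -0.1012 and 0.1804 for Npc2, and -0.4015 and 0.2471 for Smpd1. The difference in the log2 ratio of Lamp1 to Lamp2 lay between -0.3869 and 0.0238, an alternative chosen after seeing the data. Fewer samples enter the fits that leave libraries out, and for the other settings the cause was not tested. Sgsh had the widest SE of the list (0.531) and a coefficient of variation of 72% in CPN. Mcoln1 and Galns had fewer counts in all and smaller SE (0.448 and 0.471). The reason was not tested.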
